A study of Mus musculus with 24 samples.

Results

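The 37 genes described here encode the subunits of integrins and the chains of laminins that were listed for mouse bone marrow endothelium and stroma. They were taken by symbol from 23879 listed genes: 18 integrin alpha subunits (Itga1 to Itga11, Itga2b, Itgad, Itgae, Itgal, Itgam, Itgav and Itgax), 8 integrin beta subunits (Itgb1 to Itgb8) and 11 laminin chains (with Lama1 to Lama5, Lamb1 to Lamb3, Lamc1 and Lamc3 among them). The study of the arteriolar niche of blood stem cells measured polyA RNA in 24 libraries from C57BL/6J mice, in 8 groups of 3. Endothelium and stroma of the bone marrow were each profiled in a first culture (here "in culture"), in a co-culture series without added cells ("alone") and with hematopoietic stem and progenitor cells ("with HSPC"), and in vivo. The titles of all 18 libraries from cells in vitro name Akt1, which encodes a kinase downstream of growth factor receptors, and do not say what was done to it. The 6 in vivo titles lack that name, so the setting and whatever Akt1 denotes cannot be told apart. Mean Akt1 was 1672, 1104, 1814 and 445 FPKM in endothelium (first culture, alone, with HSPC, in vivo), and 619, 634, 493 and 258 FPKM in stroma. The labels used here give no age, no number of animals per library and no sorting scheme. They do not say that replicates are separate cultures or animals, so the p-values measure only how far these libraries differ from each other. That spread may be technical, although libraries of the first culture differed in sex-linked transcripts (below).

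Integrins are cell surface receptors made of 1 alpha and 1 beta subunit, and the pair sets which matrix protein or cell surface ligand is bound. Itgb1 pairs with most alpha subunits, whereas Itgb4 pairs with Itga6 alone. Laminins are trimers of an alpha, a beta and a gamma chain that form the scaffold of basement membranes. The alpha chain carries the main integrin-binding sites: Lama4 and Lama5 are the alpha chains of vascular basement membranes, Lama2 is best known from muscle and nerve, Lama3 from epithelia and Lama1 from the embryo.

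Values are FPKM (fragment counts scaled by transcript length and by the size of the library), which account for transcript length, so levels can be set side by side between genes. Differences are on the log2(FPKM + 1) scale, which understates the change of low genes, and a gene was called when the Benjamini-Hochberg adjusted p of limma was under 0.05 over all genes tested. In bulk RNA, fewer cells of a type and less RNA per cell cannot be told apart. Across libraries the summed FPKM of all genes ranged from 1421450 to 1808590, and 12447 to 13961 genes reached 1 FPKM. All 16 endothelial identity markers were higher in endothelium than in stroma in each of the 4 settings, and all 14 mesenchymal markers were higher in stroma alone, with HSPC and in vivo (11 of 14 in culture). The replicates of the first culture stood apart from each other: over the 37 members, replicate pairs correlated at 0.869 to 0.943 in endothelium and 0.843 to 0.984 in stroma, against at least 0.989 in each of the other 6 groups. Xist was above 100 FPKM in 3 of the 6 libraries of the first culture (at least 1006 FPKM) and at most 2.35 FPKM in the other 21 libraries.

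Of the 37 members, 19 reached 1 FPKM in all 24 libraries and 18 exceeded 100 FPKM in at least 1 library. Itgae, Itgax and Itgb6 reached 1 FPKM in no library, and Itgad was seen in 2 libraries of stroma in culture only, at 4.79 and 2.08 FPKM. Lamb3 was highest in 1 library of stroma in culture, at 4.10 FPKM. After the filter on low values (1 FPKM in at least 3 libraries of a fit), 32 members were tested for the first culture and the in vivo groups, without Itgad, Itgae, Itgax, Itgb6 and Lamb3. For the groups alone and with HSPC 29 were tested, since Itgam, Lama1 and Lamc3 dropped out too. Members that passed only through the group where they are high had to differ, so the counts of called members below describe the tested members and not the family. For the first culture and the in vivo groups these were Itgam, Lama1 and Lamc3, which passed only through stroma in vivo. Itga11 and Itgb8 passed there only with stromal libraries counted. For the groups alone and with HSPC, Itgb7 passed only through stromal libraries, 1 alone and 2 with HSPC. So did Itga11, Itgb8 and Lama2, listed at 0 in all endothelial libraries of that fit. Itgal passed it only through endothelial libraries, at no more than 0.42 FPKM in stroma. The differences of these genes between the cell types in these fits are thus in part set by the filter.

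The sequences before the transcription starts of 4 members are shown as examples. These genes differed between the cell types in the same direction in all 4 settings. Lama5 was higher in endothelium, and Itga11, Itgb5 and Lama2 were higher in stroma. The calls for Itga11, and those for Lama2 alone and with HSPC, were in part set by the filter. Each line holds the 250 bases before the RefSeq start on build GRCm38.p6, 5′ to 3′ on the strand of the gene, with copies of the GC box GGGCGG on either strand in capitals. The windows are chr2:180225860-180226109 (minus strand) for Lama5, chr16:33829415-33829664 (plus strand) for Itgb5, chr9:62677605-62677854 (plus strand) for Itga11 and chr10:27616943-27617192 (minus strand) for Lama2.
Lama5: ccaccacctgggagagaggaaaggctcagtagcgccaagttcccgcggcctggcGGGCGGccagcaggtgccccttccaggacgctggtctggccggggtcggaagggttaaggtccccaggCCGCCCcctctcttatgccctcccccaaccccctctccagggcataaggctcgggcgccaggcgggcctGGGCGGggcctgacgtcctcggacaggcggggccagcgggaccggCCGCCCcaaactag
Itgb5: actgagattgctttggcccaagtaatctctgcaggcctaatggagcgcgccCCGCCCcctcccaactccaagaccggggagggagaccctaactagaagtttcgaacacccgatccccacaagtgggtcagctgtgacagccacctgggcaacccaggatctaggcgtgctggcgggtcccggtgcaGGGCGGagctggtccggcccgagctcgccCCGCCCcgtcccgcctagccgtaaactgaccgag
Itga11: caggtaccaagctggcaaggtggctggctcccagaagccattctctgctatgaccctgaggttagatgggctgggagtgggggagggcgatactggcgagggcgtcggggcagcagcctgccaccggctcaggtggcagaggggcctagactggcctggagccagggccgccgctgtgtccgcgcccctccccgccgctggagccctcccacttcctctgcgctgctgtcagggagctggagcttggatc
Lama2: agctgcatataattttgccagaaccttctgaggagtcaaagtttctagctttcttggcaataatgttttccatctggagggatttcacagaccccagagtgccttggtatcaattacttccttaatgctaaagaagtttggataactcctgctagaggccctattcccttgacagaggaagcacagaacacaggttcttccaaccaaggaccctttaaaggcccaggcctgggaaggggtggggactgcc
The Lama5 window holds 4 GC boxes and that of Itgb5 holds 3, whereas those of Itga11 and Lama2 hold none. A GC box was found in 32.7% of the 32851 RefSeq windows of this length. The letters of an ETS site (CCGGAAG, in 6.91% of windows), an AP-1 site (TGANTCA, 6.75%) and a TATA box (TATAAA, 12.4%), searched on both strands, were in none of the 4 windows. Itga10 and Itgav, also higher in stroma in all 4 settings, have windows with none of these motifs, so that a GC box was in 1 of 1 window of the endothelial genes and 1 of 5 of the stromal genes found in the RefSeq table. These windows are too few to compare the cell types. The RefSeq table held an entry for 23 of the 37 members.

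Endothelium and stroma carried different laminin alpha chains. Lama5 was the main alpha chain transcript in 10 of the 12 endothelial libraries, and Lama4 that of stroma, which also carried Lama2. In culture 6 of 32 tested members were higher in endothelium and 8 in stroma (all genes: 38.7% of 14904 tested were called, 20.1% higher and 18.6% lower). The corresponding counts were 15 and 13 of 29 alone (all genes: 83.3% of 14017, 42.0% higher and 41.3% lower), 13 and 14 of 29 with HSPC (85.1%, 46.6% and 38.6%), and 8 and 9 of 32 in vivo (49.3%, 25.0% and 24.2%). These shares lie near those of all genes, so the counts are not a result about the family. The median absolute difference was 1.30 on the log2 scale in culture and 1.62 in vivo (all genes: 0.48 and 0.60), and 1.47 alone and 1.28 with HSPC (all genes: 0.66 and 0.71).

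Lama5, the alpha chain of the laminins that mature vessels and epithelia lay down, stood at 376, 142 and 126 FPKM in endothelium in culture, at 548, 545 and 542 alone, at 593, 571 and 567 with HSPC and at 223, 227 and 226 in vivo. In stroma it stood at 10.5, 33.8 and 33.2 FPKM in culture, at 11.1, 9.16 and 8.48 alone, at 15.3, 19 and 18.5 with HSPC and at 25.1, 31.3 and 27.5 in vivo. Every endothelial library was above every stromal library. The difference was 2.99 ± 0.46 (SE, log2) in culture (adjusted p = 0.000627), 5.70 ± 0.09 alone (adjusted p = 5.07e-14), 4.96 ± 0.09 with HSPC (adjusted p = 1.68e-13) and 2.97 ± 0.46 in vivo (adjusted p = 0.00036).

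Lama4, the other vascular alpha chain, was not particular to endothelium. In stroma it stood at 347, 326 and 319 FPKM alone and at 477, 469 and 502 with HSPC, against 130, 118 and 119 and 103, 100.1 and 104 in endothelium. Stroma was thus higher in both co-culture groups, by 1.42 ± 0.05 (log2) alone and 2.23 ± 0.05 with HSPC. In vivo the cell types overlapped, at 199, 161 and 179 FPKM in endothelium and 189, 144 and 170 in stroma, and the difference of 0.10 ± 0.70 was not called (adjusted p = 0.93). In culture the endothelial libraries ran from 23.4 to 308 FPKM and held all 3 stromal ones between them. Without replicate 1 of endothelium in culture, endothelium was higher by 0.95 (adjusted p = 0.044), against -0.07 with it. Without the cultured libraries that carry Xist the difference was -1.92, but that left endothelium in culture at 1 library (23.4 FPKM).

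As a share of the summed FPKM of the 5 alpha chains, Lama5 made up 53.8% ± 30.6 (SD, n = 3) in endothelium in culture and 52.7% ± 2.5 in vivo, and 79.3% ± 0.72 alone and 84.9% ± 0.32 with HSPC. Its share in stroma was 14.1% ± 4.8, 10.6% ± 2.3, 2.36% ± 0.23 and 3.23% ± 0.38 in the same order. Lama4 made up 62.4% ± 11.5, 62.3% ± 1.8, 81.7% ± 0.27 and 88.6% ± 0.30 in stroma. In culture, Lama4 exceeded Lama5 in replicates 2 and 3 of endothelium (67.6% against 31.3%, and 43.2% against 41.3%). In endothelium in vivo the remainder was largely Lama4, at 41.9% ± 2.8, with Lama3 at 5.30% ± 0.39. In both cell types the group in vivo was thus more evenly mixed than the groups alone and with HSPC.

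**Figure D1:**
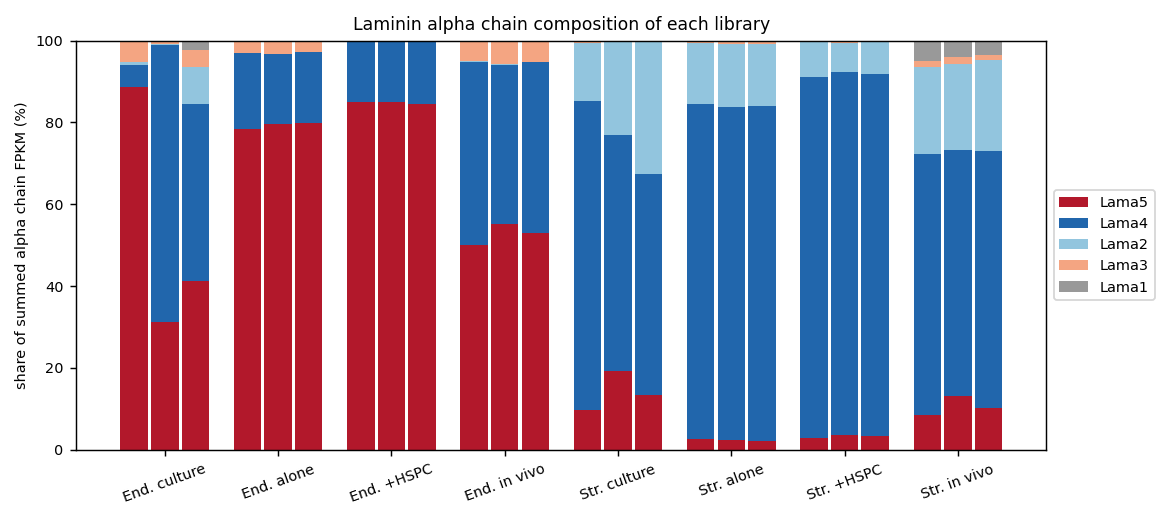
Share of each laminin alpha chain in the summed alpha chain FPKM (percent, y axis) in each of the 24 libraries (x axis, 3 bars per group in replicate order). Lama5 holds 78.4% to 85.1% in endothelium alone and with HSPC, and Lama4 holds 81.4% to 88.9% in stroma of the same series, while endothelium in culture differs between its 3 libraries.

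Lama2 was a stromal transcript. It stood at 62.7, 62.1 and 59.9 FPKM in stroma alone, at 46.2, 37.4 and 43.8 with HSPC and at 63.2, 50 and 60.1 in vivo. In endothelium it was listed at 0 in the 6 libraries alone and with HSPC and at 0.36 to 0.43 FPKM in vivo. The first culture was less separate, with 2.6, 1.33 and 27.9 FPKM in endothelium and 15.3, 40.9 and 81.1 in stroma. That call (-2.62 ± 0.83, adjusted p = 0.0304) was lost without replicate 1 or 2 of endothelium (adjusted p = 0.0882 and 0.102) and without replicate 2 or 3 of stroma (0.0807 and 0.112).

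Lama3 and Lama1 were minor chains. Lama3 stood at 20.2, 21.9 and 18 FPKM in endothelium alone and at 22.4, 23.7 and 21.9 in vivo, against 2.76, 3.22 and 2.71 and 4.74, 4.44 and 3.47 in stroma. Endothelium was higher in culture, alone and in vivo (3.15 ± 0.53, 2.43 ± 0.11 and 2.19 ± 0.53) and lower with HSPC (-0.91 ± 0.11, adjusted p = 6.83e-06). Lama1 was listed at 0 in all endothelial libraries but 2 of the first culture, at 0.64 and 7.15 FPKM. Among stromal libraries it was above 0 only in vivo, at 14.4, 9.24 and 9.32 FPKM.

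Among beta and gamma chains, both cell types carried Lamb1, Lamb2 and Lamc1. These are the chains that assemble with either vascular alpha chain. Lamb1 was higher in stroma alone (409, 386 and 371 FPKM against 128, 138 and 153) and with HSPC (541, 707 and 569 against 141, 132 and 142), by 1.47 ± 0.09 and 2.11 ± 0.09. In vivo it stood at 376, 271 and 322 FPKM in stroma and 173, 162 and 183 in endothelium, which did not overlap, but the difference of -0.89 ± 0.57 was not called (adjusted p = 0.227) with the spread of the first culture in the fit. Within the 6 in vivo libraries alone it was called (adjusted p = 0.000349). Lamc1, the gamma chain of most laminins, ran from 137 to 511 FPKM over the 24 libraries. It was higher in endothelium alone (0.36 ± 0.05) and lower with HSPC (-0.32 ± 0.05). Lamc3 never exceeded 4.02 FPKM.

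Alone and with HSPC, endothelium and stroma carried different integrin beta subunits beside Itgb1. In vivo Itgb5 had the largest mean share of the rest in both cell types. Itgb1 was the most abundant beta subunit in every library and made up, by group, a mean of 74.7% to 92.2% of the summed beta subunit FPKM. Of the rest, Itgb4 made up 73.2% ± 1.2 in endothelium alone and 72.6% ± 0.76 with HSPC, with Itgb3 at 26.3% ± 1.1 and 26.05% ± 0.69. In stroma Itgb5 made up 95.6% ± 0.39 alone, 92.8% ± 1.4 with HSPC and 80.7% ± 1.4 in vivo. In endothelium in vivo Itgb5 also led on average, at 42.3% ± 9.3, with Itgb3 at 27.0% ± 11.2 and Itgb4 at 24.7% ± 3.8. In replicate 3 of that group Itgb3 exceeded Itgb5 (33.7 against 27.5 FPKM). The first culture was mixed: Itgb3 exceeded Itgb4 in replicates 2 and 3 of endothelium (222 against 81.6 FPKM, and 96.9 against 81.9), and replicates 2 and 3 of stroma held 166 and 170.3 FPKM of Itgb3 beside Itgb5 at 278 and 270.

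Itgb4, the beta subunit of the laminin receptor that anchors cells to keratin filaments in epithelia, stood at 617, 598 and 585 FPKM in endothelium alone and at 1174, 1106.5 and 1073 with HSPC. It stood at 799, 81.6 and 81.9 in culture and at 19.1, 23 and 20.8 in vivo. In stroma it ran from 1.03 to 5.06 FPKM, below every endothelial library. The difference was 5.87 ± 0.71 in culture (adjusted p = 0.000122), 7.67 ± 0.34 alone (7.4e-10), 8.20 ± 0.34 with HSPC (3.93e-10) and 2.03 ± 0.71 in vivo (0.0369). The in vivo call was lost when any 1 of the 6 in vivo libraries was left out (adjusted p = 0.0714 to 0.0972), although the groups did not overlap.

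Its partner Itga6 stood between 321 and 438 FPKM in 11 of the 12 endothelial libraries and at 58.8 in the remaining one, replicate 3 of the first culture. In stroma it stood at 157, 290 and 197 FPKM in culture, at 59.7, 55.4 and 57.7 alone, at 162, 110 and 145 with HSPC and at 5.21, 4.44 and 5.87 in vivo. The cell types were therefore far apart in vivo (5.90 ± 0.60, adjusted p = 1.59e-05) and alone (2.82 ± 0.11) and overlapped in culture (-0.0019 ± 0.60). Without the low endothelial library the difference in culture was 0.90 (adjusted p = 0.0162). Per Itga6, endothelium held more Itgb4 alone and with HSPC (log2 of Itga6 over Itgb4 of -0.54 ± 0.03 and -1.71 ± 0.10, SD) and much less in vivo (4.14 ± 0.36).

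Itga3 lay on the endothelial side in the co-culture series. This subunit, which pairs with Itgb1 and prefers Lama5 and Lama3, stood at 268, 320 and 303 FPKM in endothelium alone against 29.7, 30.2 and 30.1 in stroma, a difference of 3.26 ± 0.06 (adjusted p = 3e-13). In vivo it stood at 63.5, 65.6 and 84 FPKM against 11.8, 10.5 and 10.6. That difference of 2.58 ± 1.24 was not called (adjusted p = 0.112) beside the first culture, where stroma ran from 4.29 to 252 FPKM, but it was called within the in vivo libraries (adjusted p = 8.87e-07). Itga7, known from muscle, was higher in endothelium alone (29.3, 37.9 and 38.6 FPKM against 24.6, 22.5 and 21.6, a difference of 0.59 ± 0.18) and was called in no other setting.

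**Figure D2:**
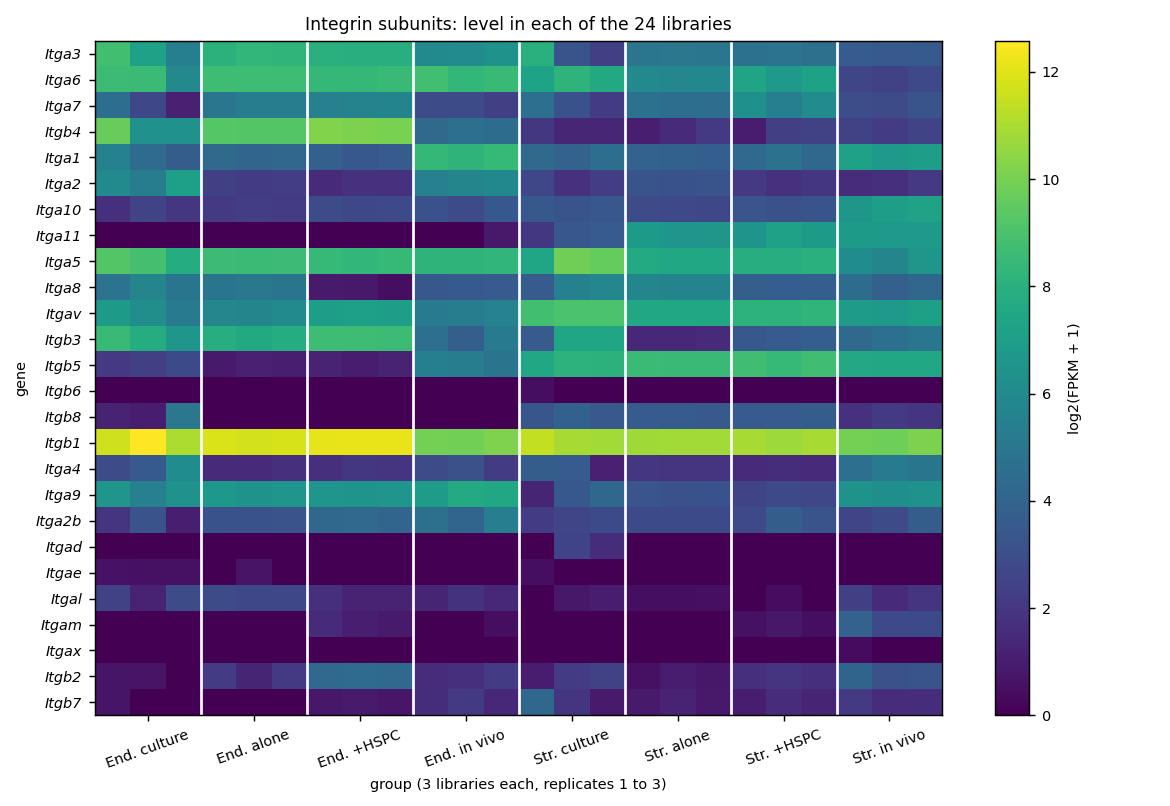
Level of each of the 26 integrin subunits (rows) in each of the 24 libraries (columns, 3 per group), as log2(FPKM + 1) on the colour scale. Itgb1 is the brightest row throughout, and Itgb4 and Itgb3 are high in endothelium alone and with HSPC. Itgb5 is high in stroma, and Itga11 is high in stroma outside the first culture.

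Receptors for fibronectin, vitronectin and other RGD-bearing ligands split by beta subunit. Itgb5, a partner of Itgav, stood at 184, 278 and 270 FPKM in stroma in culture, at 385, 360 and 364 alone, at 424, 339 and 422 with HSPC and at 192, 179 and 184 in vivo. In endothelium it stood at 3.31, 4.29 and 6.04 FPKM, at 0.89, 1.2 and 1.08, at 1.36, 0.99 and 1.35, and at 42.45, 37.9 and 27.5. All stromal libraries were above all endothelial ones, with differences of -5.47 ± 0.22, -7.50 ± 0.10, -7.47 ± 0.10 and -2.35 ± 0.22 (adjusted p at most 9.96e-06). Itgb3, the other main partner of Itgav, went the other way in the co-culture series, at 228, 201 and 218 FPKM in endothelium alone and 1.7, 1.61 and 1.84 in stroma (6.32 ± 0.07, adjusted p = 4.32e-15). In vivo the cell types overlapped for Itgb3, at 23.4, 12.9 and 33.7 FPKM and 18.6, 23.4 and 29.9 (-0.11 ± 0.91, adjusted p = 0.945).

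Itgav itself was higher in stroma in all 4 settings, by 2.84 ± 0.33 in culture and 1.59 ± 0.33 in vivo, and by 1.68 ± 0.05 alone and 1.12 ± 0.05 with HSPC. Itga5, the classical fibronectin receptor subunit, was higher in endothelium alone (391, 386 and 392 FPKM against 203, 184 and 188) and in vivo (286, 287 and 307 against 68.2, 54.5 and 101), by 1.02 ± 0.05 and 2.01 ± 0.58. The latter call was lost without replicate 2 of stroma in vivo (adjusted p = 0.0587). Itgb8, an activator of latent TGF-beta with Itgav, stood at 2.51 to 14.2 FPKM in stroma. In endothelium it was listed at 0 in all 9 libraries outside the first culture. In that culture endothelium held 1.38, 0.99 and 30.99 FPKM, the last being the highest of all 24 libraries. Itga8, an RGD receptor of smooth muscle and mesenchyme, was higher in stroma alone (-0.76 ± 0.10) and with HSPC (-3.03 ± 0.10).

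Collagen receptors divided by subunit. Itga11, a fibroblast receptor for fibrillar collagen, stood at 113, 95.8 and 102 FPKM in stroma alone, at 89.7, 146 and 115 with HSPC and at 116, 108 and 108 in vivo. It was listed at 0 in 11 of 12 endothelial libraries and at 0.8 FPKM in the other, so no fold is given. Stroma in culture stood apart from the rest of the stroma at 3.05, 9.57 and 11.6 FPKM. Itga10, a cartilage receptor, was higher in stroma in all 4 settings, and most so in vivo (99.1, 131 and 152 FPKM against 7.97, 6.66 and 10.1, a difference of -3.79 ± 0.25, adjusted p = 6.45e-07). Itga2, known from platelets and epithelia, was higher in endothelium in culture (61.6, 37.8 and 136 FPKM against 5.33, 2.52 and 3.85) and in vivo (43.1, 52.4 and 58.3 against 2.04, 2.3 and 3.23), by 3.86 ± 0.40 and 3.89 ± 0.40. Alone it was lower in endothelium (4.17, 3.72 and 3.94 FPKM against 8.7, 7.89 and 8.54, a difference of -0.92 ± 0.11).

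The remaining integrins included several typical of blood cells. Itga9, a receptor for tenascin that is needed in lymphatic valves, stood at 85.6 to 102 FPKM in endothelium alone against 7.73 to 9.06 in stroma. It was higher in endothelium in culture (3.19 ± 0.61, adjusted p = 0.00223), alone (3.35 ± 0.08) and with HSPC (3.89 ± 0.08), and was not called in vivo (1.01 ± 0.61, adjusted p = 0.199). Itga1 was higher in endothelium in vivo (1.33 ± 0.37) and lower with HSPC (-0.79 ± 0.13). Its call alone (0.33 ± 0.13, adjusted p = 0.036) was lost without any 1 of 4 libraries (adjusted p up to 0.122). Itgal was higher in endothelium in culture, alone and with HSPC (1.62 ± 0.43, 2.29 ± 0.16 and 1.25 ± 0.16), at no more than 6.6 FPKM in any library. Itgb2 was lower in endothelium in culture and in vivo (-1.43 ± 0.41 and -1.63 ± 0.41) and higher alone and with HSPC (1.10 ± 0.20 and 2.55 ± 0.20). The call in culture was lost without the cultured libraries that carry Xist (adjusted p = 0.305). Itgb7 reached 18.2 FPKM in 1 library of stroma in culture and at most 3.46 in the other 23. Itga2b was higher in endothelium with HSPC (0.98 ± 0.17) and in vivo (1.61 ± 0.53, adjusted p = 0.0273), the latter lost without any 1 of 4 in vivo libraries (adjusted p up to 0.108).

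Over all 4 settings, whose libraries are not shared, 2 of 29 members were called higher in endothelium each time, namely Itgb4 and Lama5 (all genes: 8.87%). Itga10, Itga11, Itgav, Itgb5 and Lama2 were lower each time (5 of 29, all genes: 7.91%). The calls for Itga11, and those for Lama2 alone and with HSPC, were in part set by the filter on low values. Another 7 were called in opposite directions in at least 1 pair of settings, among them Itga1, Itga2, Itga4, Itgb2, Lama3 and Lamc1 (all genes: 18.9%).

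**Figure D3:**
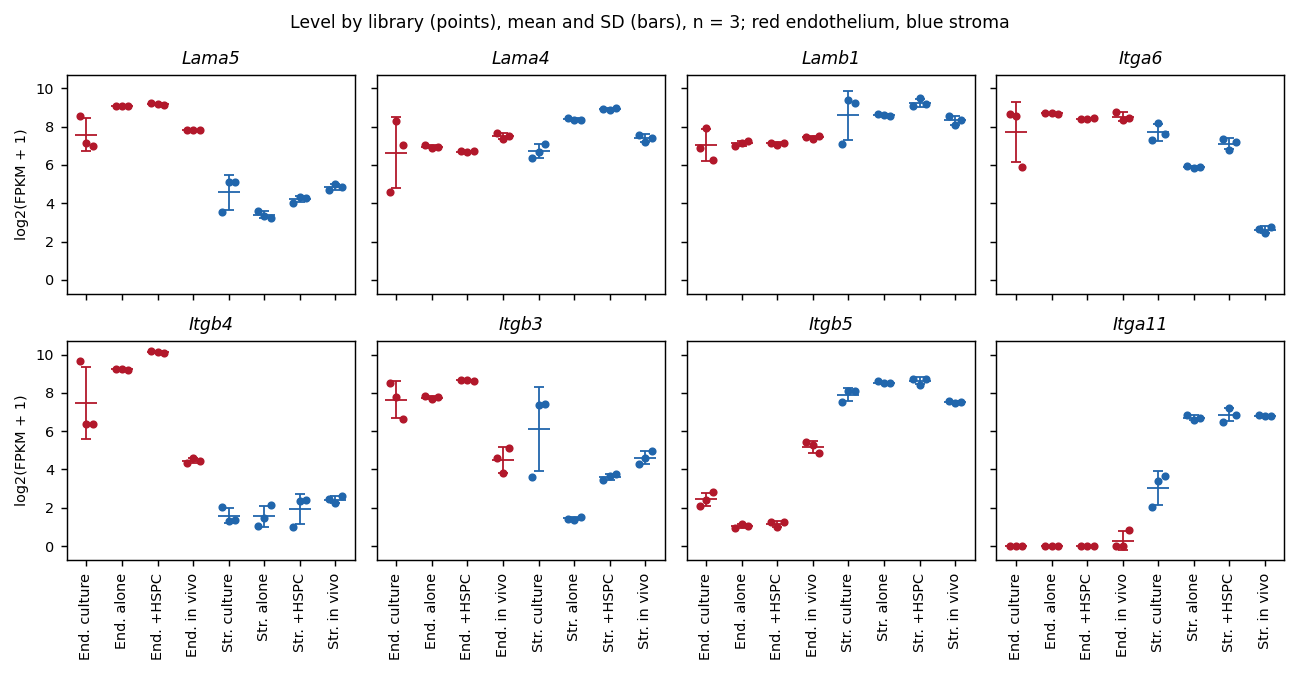
Levels of 8 members as log2(FPKM + 1) (y axis) in the 8 groups (x axis), with each library as a point and the mean and SD of 3 libraries as bars. Lama5 and Itgb4 are higher in each endothelial group than in its stromal counterpart, Itgb5 and Itga11 are lower, and Itga6 in stroma falls from 215 FPKM in culture to 5.17 in vivo.

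With HSPC the members called were in part different in endothelium and stroma. In endothelium Itgb3, Itgav, Itgb2 and Itga2b rose and Itga8, Lama3 and Itgal fell. In stroma Itgb3, Itga7, Itga6, Lama5, Lama4 and Lamb1 rose, and Itga8, Itga2 and Lama2 fell. In endothelium 9 of 29 tested members rose and 10 fell (all genes: 48.6% of 14017 called, 28.3% up and 20.3% down), and in stroma 12 rose and 8 fell (all genes: 61.0%, 25.6% up and 35.4% down). When the spread of all 8 groups, with the first culture among them, was used, 6 members were called in endothelium and 4 in stroma. Of those named here, Itga8, Lama3, Itgal, Itgav and Itgb2 in endothelium and Itga8, Itga2, Itgb2 and Itgb3 in stroma still passed.

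Among laminin chains, Lama4 and Lamc1 fell in endothelium and rose in stroma with HSPC, and Lama3 fell in both. In endothelium 4 of 8 tested chains fell and 0 rose, beside the 48.6% of all genes that were called. Lama3 fell from 20.2, 21.9 and 18 FPKM to 0.79, 0.58 and 0.62 (-3.66 ± 0.11, adjusted p = 5.5e-10), and no library with HSPC came near those alone. Lamc1 fell from 508, 511 and 510 FPKM to 363, 344 and 357 (-0.52 ± 0.05, adjusted p = 6.31e-06). Lama4 fell by 0.26 ± 0.05 (adjusted p = 0.000765), and Lama5 was not called, at 0.08 ± 0.09 (adjusted p = 0.487).

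In stroma 4 of 8 tested chains rose with HSPC and 3 fell, beside 25.6% and 35.4% of all genes. Lama5 rose from 11.1, 9.16 and 8.48 FPKM to 15.3, 19 and 18.5 (0.82 ± 0.09, adjusted p = 9.7e-06). Lama4 rose from 347, 326 and 319 FPKM to 477, 469 and 502 (0.55 ± 0.05, adjusted p = 1.4e-06), and Lamb1 from 409, 386 and 371 to 541, 707 and 569 (0.63 ± 0.09, adjusted p = 0.000122). For each of these chains the libraries with HSPC were all above those alone. Lama2 fell from 62.7, 62.1 and 59.9 FPKM to 46.2, 37.4 and 43.8 (-0.53 ± 0.08, adjusted p = 0.000133), and Lamb2 fell by 0.36 ± 0.05. Calls for Lamc1 (0.15 ± 0.05) and Lama3 (-0.32 ± 0.11) in stroma were each lost without any 1 of 4 and 3 libraries, with adjusted p up to 0.0965 and 0.088.

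The response differed between the cell types, tested as an interaction, for 22 of 29 members (all genes: 57.0%, 36.0% higher and 21.1% lower in endothelium). Among the laminin chains, Lama3, Lama4, Lama5, Lamb1 and Lamc1 moved lower in endothelium than in stroma, and Lama2 and Lamb2 moved higher. For Lama4 the difference of the responses was -0.80 ± 0.07 (adjusted p = 1.96e-06) and for Lama3 -3.34 ± 0.15 (adjusted p = 2.62e-08). Since Lama2 was listed at 0 in endothelium, its value reflects the fall in stroma. With the spread of all 8 groups 3 members differed in their response.

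Among laminin receptors, Itga6 rose in stroma from 59.7, 55.4 and 57.7 FPKM to 162, 110 and 145 (1.24 ± 0.11, adjusted p = 1.45e-06) and Itga7 from 24.6, 22.5 and 21.6 to 77.3, 42.3 and 67.3 (1.36 ± 0.18, adjusted p = 5.11e-05). Both groups were fully separate. In endothelium Itga6 was not called (-0.27 ± 0.11, adjusted p = 0.0525), and the responses differed by -1.51 ± 0.15 (adjusted p = 8.24e-06). Itgb4 in endothelium rose from 617, 598 and 585 FPKM to 1174, 1106.5 and 1073, which did not overlap. Its call (0.90 ± 0.34, adjusted p = 0.0471) rests on a spread shared with stroma, where the level ran from 1.03 to 4.31 FPKM. It was lost with a pseudocount of 0.1 (adjusted p = 0.17), without the filter, under both scalings and without any 1 of the 6 endothelial libraries, and it held within endothelium alone (adjusted p = 7.63e-07). Itga3 fell by 0.27 ± 0.06 in endothelium and 0.26 ± 0.06 in stroma.

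Of the RGD receptors, Itgb3 rose in both cell types, in endothelium from 228, 201 and 218 FPKM to 404, 406 and 393 (0.89 ± 0.07, adjusted p = 1.6e-06). In stroma it rose from 1.7, 1.61 and 1.84 FPKM to 10, 11.6 and 12.5 (2.18 ± 0.07, adjusted p = 8.18e-10). Itgav rose from 55.8, 54.4 and 60.7 FPKM to 130, 136 and 127 in endothelium (1.19 ± 0.05, adjusted p = 4.35e-09) and from 187, 185 and 183 to 281, 278 and 300 in stroma (0.63 ± 0.05, adjusted p = 4.54e-07). The transcripts of Itgav and of its partner Itgb3 thus rose in the libraries of both cell types. Most pan-leukocyte and granulocyte markers rose there too (below), and the part of blood cells in these changes was not tested. Itgb5, a partner of Itgav that stood far above Itgb3 in stroma (424, 339 and 422 FPKM with HSPC), was not called in either (0.12 ± 0.10 and 0.09 ± 0.10).

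The largest fall was that of Itga8, from 28.9, 31.2 and 28.9 FPKM to 0.88, 0.79 and 0.39 in endothelium (-4.20 ± 0.10, adjusted p = 1.16e-10). In stroma it fell from 53, 49.7 and 49.9 FPKM to 13.2, 12.3 and 12.4 (-1.92 ± 0.10, adjusted p = 3.03e-08). Smooth muscle and pericyte markers, among which Itga8 is often found, moved in both directions in stroma, where 2 of 5 tested rose and 3 fell. Their summed FPKM was 8.18 to 10.05 and 9.48 to 10.6 in endothelium and 677 to 815 and 325 to 410 in stroma, alone and with HSPC, and their part in the change of Itga8 was not tested. Itga5 fell by 0.20 ± 0.05 in endothelium and rose by 0.30 ± 0.05 in stroma, small changes in opposite directions. Itga1, a collagen receptor, did the same (-0.57 ± 0.13 and 0.55 ± 0.13).

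**Figure D4:**
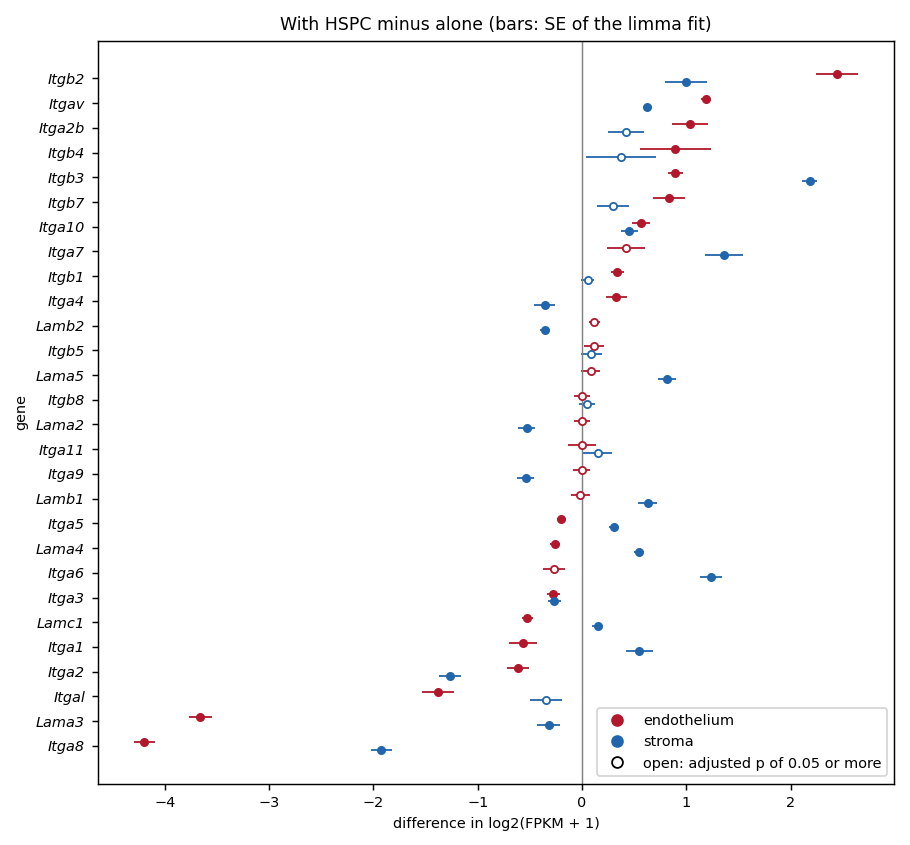
Difference with HSPC minus alone in log2(FPKM + 1) (x axis) for 28 tested members (rows, ordered by endothelium), in endothelium (red) and stroma (blue), with the SE of the limma fit as bars and open points where the adjusted p was 0.05 or more. Itga8 and Lama3 are the largest falls in endothelium at -4.20 and -3.66, and Itgb3 is the largest rise in stroma at 2.18.

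Itgb2 and Itga2b rose with HSPC together with blood cell markers. Itgb2, the beta subunit of leukocyte integrins, rose in endothelium from 3.6, 1.5 and 3.37 FPKM to 18.5, 19.99 and 18.9 (2.45 ± 0.20, adjusted p = 1.8e-06). In stroma it rose from 0.47, 1 and 0.74 FPKM to 2.33, 2.73 and 2.25 (0.99 ± 0.20, adjusted p = 0.00119). Of 10 pan-leukocyte markers, 9 rose in endothelium, with a summed FPKM of 70.5 to 76.3 alone and 191 to 235 with HSPC, and all 10 rose in stroma, with 235 to 240.1 and 401 to 465. Ptprc, the leukocyte surface protein CD45, was listed at 0 in all 6 libraries alone and stood at 1.17 to 2.06 FPKM in endothelium and 0.33 to 0.47 in stroma with HSPC. Granulocyte markers summed to 48.1 to 54.8 and 1608 to 1794 FPKM in endothelium and to 0 and 644 to 847 in stroma, and 8 and 9 of 9 tested rose. The part of these cells in the change of Itgb2 was not tested.

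Itgam, an alpha partner of Itgb2 on myeloid cells, was listed at 0 in the 6 libraries alone and at 0.86 to 1.81 FPKM in endothelium and 0.40 to 0.77 in stroma with HSPC. Itgal, the lymphocyte partner of Itgb2, fell in endothelium from 6.25, 5.7 and 5.63 FPKM to 2.35, 1.33 and 1.34 (-1.38 ± 0.16, adjusted p = 2.41e-05), against the direction of Itgb2. Itga2b, the platelet fibrinogen receptor subunit, rose in endothelium from 7.85, 7.89 and 8.44 FPKM to 18, 18.9 and 16 (1.04 ± 0.17, adjusted p = 0.00042). Of 7 tested platelet markers 5 rose and 1 fell there, with a summed FPKM of all 10 of 79.9 to 87.9 alone and 103 to 190.2 with HSPC, and their part in the change of Itga2b was not tested. Itgb7 rose in endothelium from 0 to 0.68 to 0.91 FPKM, which is below the 1 FPKM of the filter. Itga4, which binds Vcam1, was low throughout these groups (1.79 to 3.07 FPKM). It rose by 0.33 ± 0.10 in endothelium, a call lost under quantile normalization and without 4 of the 6 libraries in turn, and fell by 0.36 ± 0.10 in stroma.

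Both cell types together, 4 of 29 members rose in endothelium and in stroma: Itga10, Itgav, Itgb2 and Itgb3 (all genes: 10.8%). Itga2, Itga3, Itga8 and Lama3 fell in both (4 of 29, all genes: 9.55%), and Itga1, Itga4, Itga5, Lama4 and Lamc1 were called in opposite directions (5 of 29, all genes: 11.3%). These shares are close to those of all genes.

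Between culture and the marrow, the largest called differences included those of Itgb4, Itgb3, Itgb5 and Itga1 in endothelium, and Itga6, Itga11, Itga10, Itga9 and Itga5 in stroma. In endothelium 6 of 32 tested members were higher in vivo and 6 lower (all genes: 53.3% of 14904 called, 23.6% higher and 29.8% lower), and in stroma 10 were higher and 5 lower (all genes: 55.4%, 24% and 31.4%). The spread of the first culture limits these counts. Leaving out the 3 cultured libraries that carry Xist changed them in both cell types. That left endothelium in culture at 1 library, assumed to vary like the other groups, so those counts are not given.

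In endothelium Itgb4 fell to 19.1, 23 and 20.8 FPKM in vivo from 799, 81.6 and 81.9 in culture (-3.01 ± 0.71, adjusted p = 0.00507), with no overlap. Itgb3 fell to 23.4, 12.9 and 33.7 FPKM from 369, 222 and 96.9 (-3.14 ± 0.91, adjusted p = 0.0143), a call lost without replicate 1 in culture or replicate 2 in vivo (adjusted p = 0.0509 and 0.0543). Itgb1 fell to 982, 956 and 1116 FPKM from 3286, 6119 and 2125 (-1.78 ± 0.34, adjusted p = 0.00154), and it fell in stroma as well, to 987, 884 and 1097 from 2783, 1944 and 1825 (-1.12 ± 0.34, adjusted p = 0.0182). In stroma that call was lost without replicate 1 in culture or replicate 2 in vivo (adjusted p = 0.0537 and 0.0605). Itgb5 rose in endothelium, to 42.45, 37.9 and 27.5 FPKM from 3.31, 4.29 and 6.04 (2.74 ± 0.22, adjusted p = 5.76e-06), and in stroma it was not called (-0.37 ± 0.22, adjusted p = 0.182).

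Itga1, a receptor for basement membrane collagen, rose in both cell types, to 334, 291 and 348 FPKM from 45.2, 19.99 and 12.1 in endothelium (3.80 ± 0.37, adjusted p = 1.8e-05). In stroma it rose to 147, 107 and 133 FPKM from 19.1, 14.7 and 22.1 (2.74 ± 0.37, adjusted p = 0.000145). Itga10 rose in both as well, to 7.97, 6.66 and 10.1 FPKM from 2.4, 5.06 and 2.99 in endothelium (1.07 ± 0.25, adjusted p = 0.00476) and to 99.1, 131 and 152 from 10, 8.68 and 9.72 in stroma (3.59 ± 0.25, adjusted p = 1.26e-06). Itga11 rose in stroma to 116, 108 and 108 FPKM from 3.05, 9.57 and 11.6 (3.78 ± 0.39, adjusted p = 2.16e-05). Itga2 was called in neither, so that 3 of 4 collagen receptor subunits were higher in vivo in stroma and 2 of 4 in endothelium (all genes: 24% and 23.6%), and 4 genes are too few to read as a group. Markers of other cells were higher in endothelium in vivo beside Itga1, Itga10 and Itgb5. Of 9 smooth muscle and pericyte markers 6 were higher there and 0 lower, with a summed FPKM of 63.5 to 725 in culture and 406 to 430 in vivo. Of 14 mesenchymal markers 9 were higher and 1 lower, with a summed FPKM that was lower in vivo (1942 to 4280 and 310 to 482), and 14 of 14 reached 1 FPKM in vivo against 6 to 7 in culture. The part of such cells in these changes was not tested.

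In stroma Itga6 fell to 5.21, 4.44 and 5.87 FPKM in vivo from 157, 290 and 197 (-5.09 ± 0.60, adjusted p = 5.57e-05). Its change differed from that in endothelium, where it was not called, by 5.91 ± 0.85 (adjusted p = 0.000424). Itga5 fell in stroma to 68.2, 54.5 and 101 FPKM from 168, 912 and 778 (-2.75 ± 0.58, adjusted p = 0.00267), and Itgav to 122, 106 and 139 from 429, 521 and 519 (-1.99 ± 0.33, adjusted p = 0.000566). Itga9 rose in stroma to 88.2, 75.9 and 85.8 FPKM from 1.43, 10.1 and 17.3 (3.41 ± 0.61, adjusted p = 0.000931). In endothelium Itga9 was high in both settings (92.8, 44.3 and 87.7 FPKM in culture and 125, 208 and 184 in vivo) and was not called (1.23 ± 0.61, adjusted p = 0.114).

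The 10 tested laminin chains are too few to read as a group. In endothelium their calls stand beside the 53.3% of all genes that were called (23.6% higher and 29.8% lower). There 1 of 10 tested was higher in vivo (Lamb2, 1.15 ± 0.38, adjusted p = 0.0252, lost without any 1 in vivo library, replicate 2 in culture or the libraries that carry Xist) and 1 was lower (Lama2, -2.17 ± 0.83, adjusted p = 0.0485). Lama2 had 27.9 FPKM in replicate 3 of the first culture and at most 2.6 in the other 2, and without replicate 3 its difference was -1.06 (adjusted p = 0.126). That call was also lost without any 1 in vivo library (adjusted p = 0.0987 to 0.103). Lama4 was not called with all libraries (0.85 ± 0.70, adjusted p = 0.332). Its difference was 2.88 without the cultured libraries that carry Xist, which left endothelium in culture at 1 library. Lama5 was not called in either cell type (0.25 ± 0.46 and 0.27 ± 0.46). In stroma Lama1, Lama3 and Lamc3 were higher in vivo. Lama1 went from 0 in all 3 cultured libraries to 14.4, 9.24 and 9.32 FPKM, Lama3 to 4.74, 4.44 and 3.47 FPKM from 0.73, 0 and 0 (2.11 ± 0.53), and Lamc3 to 1.9, 4.02 and 3.2 FPKM from 0. These chains stayed low beside Lama4 in stroma in vivo, at 189, 144 and 170 FPKM.

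**Figure D5:**
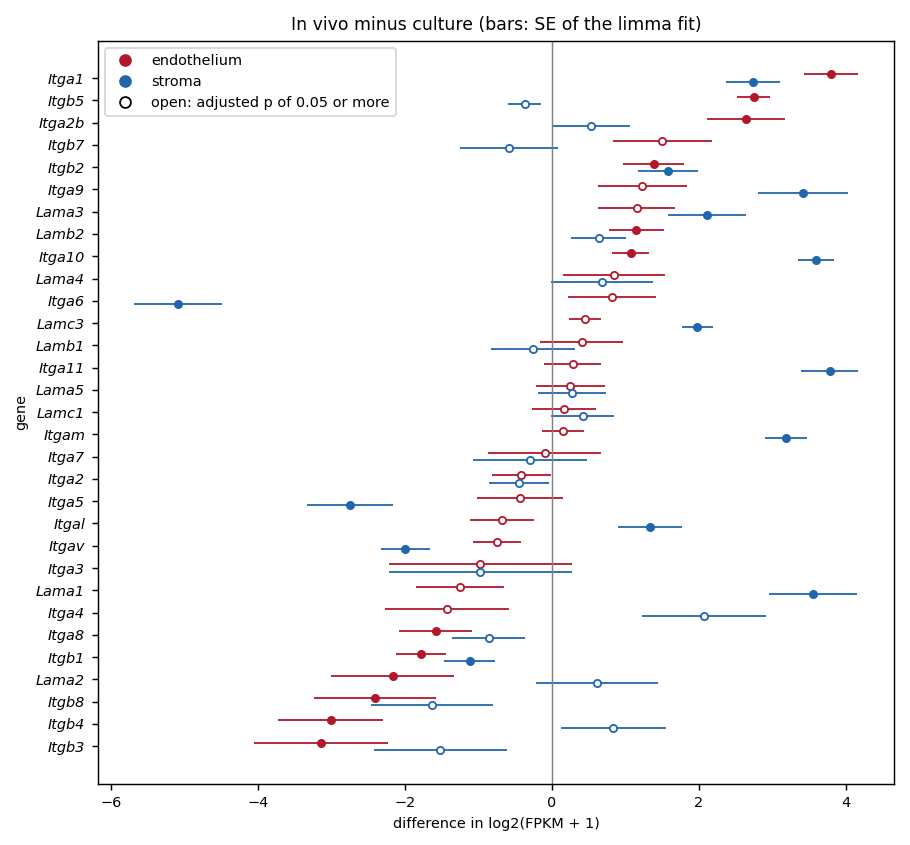
Difference in vivo minus culture in log2(FPKM + 1) (x axis) for 31 tested members (rows, ordered by endothelium), in endothelium (red) and stroma (blue), with the SE of the limma fit as bars and open points where the adjusted p was 0.05 or more. Itga1 is at 3.80 and 2.74 in the 2 cell types, Itga6 at 0.82 and -5.09 and Itgb4 at -3.01 and 0.84.

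Itgam and Itgb2 in stroma and Itga2b in endothelium were higher in vivo beside blood cell markers. Itgam stood at 14.8, 5.76 and 6.04 FPKM in stroma in vivo and at 0 in stroma in culture, and Itgb2 at 15.4, 7.63 and 8.73 against 0.98, 3.57 and 4.65 (1.58 ± 0.41, adjusted p = 0.00779). In stroma 8 of 10 pan-leukocyte markers and 11 of 11 granulocyte markers were higher in vivo, the latter with a summed FPKM of 0 to 6.91 in culture and 1564 to 3402 in vivo, and Ptprc went from 0 to 3.77 to 7.42 FPKM. All 9 erythroid markers were higher as well, with a median difference of 8.63 (log2) and a summed FPKM of 56.3 to 256 in culture and 38761 to 46374 in vivo, against 1018 to 1706 in endothelium in vivo, where 8 of 9 were higher than in culture. Within stroma in vivo, replicate 1 was highest for Itgam, Itgb2 and Ptprc. In endothelium Itga2b rose to 24.3, 15.9 and 40.05 FPKM from 2.65, 8.37 and 1.1 (2.65 ± 0.53, adjusted p = 0.00196). There 6 of 10 platelet markers were higher in vivo, with a summed FPKM of 31.4 to 52.1 in culture and 206 to 569 in vivo, and replicate 3 was highest for Itga2b and for Ppbp. The part of blood cells in these changes was not tested. Itga4 stood at 23.45, 37.1 and 29.1 FPKM in stroma in vivo and at 12.2, 11.9 and 1.24 in culture, which was not called (2.07 ± 0.84, adjusted p = 0.0591).

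The change between culture and in vivo differed between the cell types for 10 of 32 members (all genes: 33.5%, 16.4% higher and 17.1% lower), with 2 higher in endothelium (Itga6 and Itgb5) and 8 lower, among the latter Itgam, Lama1 and Lamc3, which had to differ. Both cell types together, Itga1, Itga10 and Itgb2 were higher in vivo in endothelium and stroma (3 of 32, all genes: 11.5%; Itgb2 in endothelium not without the cultured libraries that carry Xist, adjusted p = 0.117), and Itgb1 was lower in both (1 of 32, all genes: 17.8%). With limma, 0 of 32 members were called in opposite directions (all genes: 4.13%), and 0 were at an unadjusted p under 0.05.

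Other genes of the pathway were described from lists of textbook members. Of 32 tested adaptors and regulators that link integrins to actin, 20 were higher in endothelium and 8 in stroma in the groups alone (all genes: 42.0% and 41.3%), and 23 and 8 with HSPC (46.6% and 38.6%). The share called in either direction lay near the 83.3% and 85.1% of all genes. The list's median difference was 0.63 and 0.59 (log2), against 0.00498 and 0.0949 over all genes. Lims2 and Parvb, members of the complex with integrin-linked kinase, were higher in endothelium alone (mean 239 against 2.38 FPKM, and 370 against 20.1), and Tns3 and Tln2 were higher in stroma (34.3 against 343 FPKM, and 2.30 against 32.3). With HSPC, 8 adaptors rose and 18 fell in endothelium, and 13 rose and 14 fell in stroma (all genes: 28.3% and 20.3%, and 25.6% and 35.4%; median -0.20 and -0.07, all genes 0.0225 and -0.0416). Fermt3, Parvg and Rasgrp2, which blood cells use to activate integrins, were among those that rose in both. In endothelium their means went from 4.62 to 12.6 FPKM, from 4.59 to 14.9 and from 0.78 to 6.13, and the part of blood cells in this was not tested.

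Basement membrane partners and other laminin receptors were called on both sides. Of 17 tested, 6 were higher in endothelium alone and 9 in stroma (all genes: 42.0% and 41.3%), and 4 and 12 with HSPC (all genes: 46.6% and 38.6%; median -0.38 and -0.73, all genes 0.00498 and 0.0949). Bcam, a receptor for Lama5, stood at a mean of 169 FPKM in endothelium alone, 119.5 with HSPC and 466 in vivo, and was listed at 0 in stroma alone and with HSPC. Col18a1 was higher in endothelium alone (889 against 10.6 FPKM), whereas Nid2, which links laminin to collagen IV, was higher in stroma (11.5 against 893 FPKM). With HSPC 9 of 17 rose in stroma and 2 fell (all genes: 25.6% and 35.4%; median 0.23, all genes -0.0416). Nid2 fell there from 893 to 311 FPKM (-1.53, adjusted p = 3.82e-07) and Sdc4 rose from 464 to 1162 (1.32, adjusted p = 5.04e-08).

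Among ligands of integrins other than laminins, Tgfbi and Ctgf fell in endothelium and rose in stroma with HSPC. In endothelium 1 of 17 tested rose and 11 fell (all genes: 28.3% and 20.3%), and in stroma 8 rose and 5 fell (all genes: 25.6% and 35.4%; median -0.42 and 0.12, all genes 0.0225 and -0.0416). Tgfbi fell in endothelium from 97.4 to 5.93 FPKM (-3.85, adjusted p = 7.37e-10) and rose in stroma from 124 to 402 (1.68, adjusted p = 2.91e-07). Ctgf fell from 314 to 81.9 FPKM and rose from 144 to 481, respectively. Fn1, the ligand of Itga5, rose in stroma from 4662 to 12509 FPKM (1.42, adjusted p = 3.46e-08), and Spp1, a ligand of Itgav and Itga9, from 1745 to 4576. Vcam1, the ligand of Itga4, fell in stroma from 757 to 223 FPKM (-1.80, adjusted p = 2.26e-06). In vivo Vcam1 was higher than in culture in both cell types, at a mean of 4111 against 99.2 FPKM in endothelium and 2707 against 302 in stroma.

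Membrane partners of integrins moved in part alike. With HSPC 7 of 10 tested tetraspanins and partners rose in endothelium and 1 fell, and 4 rose and 3 fell in stroma (all genes: 28.3% and 20.3%, and 25.6% and 35.4%; median 0.25 and 0.06, all genes 0.0225 and -0.0416). Bsg rose from 1194 to 3224 FPKM in endothelium and from 2032 to 8926 in stroma. Cav1, which binds integrins at caveolae, was the one that fell in endothelium, from 4107 to 2818 FPKM, and it fell in stroma from 1537 to 685. Cd151, the tetraspanin partner of Itga3 and Itga6, was higher in endothelium alone (744 against 229 FPKM, 1.70) and with HSPC (877 against 163, 2.42).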

How the data were processed

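PolyA RNA of 24 mouse libraries was sequenced in pairs. The authors deposited 1 table of FPKM per library, made with TopHat and Cufflinks on mm9, per the submitters' processing notes, whose versions are not given in the sources used here. The 24 libraries list 23879 symbols. FPKM were not rescaled. Groups came from the sample titles. The deposited FPKM give no counts, and low values showed no common step (the fullest bin held 1.41% to 4.33% of low values over 276 pairs of libraries), so depth is unknown and no counting interval is given. limma 3.58.1 in R 4.3.3 (lmFit, eBayes with trend) was run on log2(FPKM + 1) for genes with at least 1 FPKM in at least 3 libraries, in 2 fits of 12 libraries each: culture with in vivo (14904 genes), and alone with HSPC (14017 genes). Benjamini-Hochberg adjustment ran over all genes of a fit, with a threshold of 0.05. The method was tested on simulated data, with a change added to 200 genes per comparison. In the fit of culture with in vivo, 48% to 59% of log2 changes of 1 were recovered. For its difference between the cell types 20% were recovered. In the fit of alone with HSPC 96% to 99% were recovered. False calls made up 2.5% to 9.6% of the calls. Tables were handled with Python 3.11.15 and pandas 2.3.3. Alternatives were another pseudocount, filters, scalings, fits with fewer or more groups, weights per group, a replicate block and leaving out libraries. Members and lists were chosen with earlier results of these data known. One member is counted but not reported here. The other members may be named, and from each list up to 4 called genes with the largest difference per comparison and genes that describe the list. Tns2, Adgre1 and Ighm, of these lists, were not matched.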

Additional observations from a re-analysis of the deposited data

Results flagged for a closer look

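The values below are differences between the cell types in a change (endothelium minus stroma, on the log2(FPKM + 1) scale), each past the threshold in limma's interaction test over all genes. For in vivo minus culture, the change was more positive in endothelium for Itga6 (5.91, adjusted p = 0.000424) and Itgb5 (3.12, adjusted p = 3.95e-05). It was more negative for Itgb4 (-3.84, adjusted p = 0.0143), Itga10 (-2.52, adjusted p = 0.000363), Itga11 (-3.50, adjusted p = 0.000781), Itga4 (-3.50, adjusted p = 0.0449) and Itgal (-2.01, adjusted p = 0.0284). Lama1 (-4.80), Lamc3 (-1.53) and Itgam (-3.03) were called too, but they passed the filter on low values only through stroma in vivo, where they are high, so they had to differ and their p-values are not given. Itga11 and these 3 genes are listed at or near 0 in at least 1 of the groups compared, so the sizes of their values depend on the pseudocount. The calls for Itga4, Itgal and Itga11 did not hold in every alternative. Itga4 in endothelium stood at 6.43, 10.99 and 67.4 FPKM in culture, against 6.53, 7.76 and 3.7 in vivo.

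For the change with HSPC, the laminin chains with a more positive change in endothelium were Lama2 (0.53, adjusted p = 0.00196) and Lamb2 (0.48, adjusted p = 0.000171). Those with a more negative change were Lama3 (-3.34, adjusted p = 2.62e-08), Lama4 (-0.80, adjusted p = 1.96e-06), Lama5 (-0.74, adjusted p = 0.000423), Lamb1 (-0.64, adjusted p = 0.00159) and Lamc1 (-0.67, adjusted p = 1.41e-05). Among integrins the change was more positive in endothelium for Itga2 (0.65, adjusted p = 0.00335), Itgav (0.56, adjusted p = 2.76e-05), Itgb1 (0.28, adjusted p = 0.0167), Itga4 (0.69, adjusted p = 0.00176), Itga9 (0.54, adjusted p = 0.00198), Itga2b (0.62, adjusted p = 0.0468) and Itgb2 (1.45, adjusted p = 0.00117). It was more negative for Itga6 (-1.51, adjusted p = 8.24e-06), Itga7 (-0.94, adjusted p = 0.00843), Itga1 (-1.12, adjusted p = 0.000419), Itga5 (-0.50, adjusted p = 7.52e-05), Itga8 (-2.27, adjusted p = 2.68e-07), Itgb3 (-1.29, adjusted p = 1.71e-06) and Itgal (-1.04, adjusted p = 0.00205). With the spread of all 8 groups, Lama3, Itga8 and Itgb2 still passed.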

How the results depend on the processing

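With only the compared groups in the fit, 9 members and 2801 genes were called for endothelium minus stroma in culture, and with a weight per group 9 and 3546. With all 8 groups sharing one spread, in vivo minus culture in endothelium gave 19 members, its difference between cell types 18 members and 7654 genes, HSPC minus alone 6 members and 1852 genes in endothelium and 4 and 3591 in stroma, and the difference of the HSPC responses 3 and 2276. The cause was not tested. Leaving out 1 replicate at a time gave, for endothelium minus stroma, 11 to 17 members and 4325 to 7140 genes in culture (17 without stroma replicate 1), 12 to 16 and 5750 to 6134 in vivo, 26 to 28 and 11271 to 11368 alone, and 25 to 27 and 11495 to 11893 with HSPC. For in vivo minus culture it gave 7 to 13 and 6479 to 8011 in endothelium (7 without in vivo replicate 2), 12 to 16 and 6445 to 8368 in stroma, and 6 to 14 and 3627 to 6636 for their difference (6 without stroma in vivo replicate 1). For HSPC minus alone it gave 17 to 18 and 5735 to 6133, 18 to 22 and 7736 to 8624, and 21 to 22 and 7274 to 8381.

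Direction reversed for Itgb1 with HSPC in stroma under quantile normalization (-0.22, from 0.05), Itga4 in endothelium minus stroma alone under quantile normalization (0.00326, from -0.35), and in culture for Lama4 without endothelium replicate 1 (range -0.88 to 0.95 when leaving out 1 library) and Itga6 without endothelium replicate 3 (range -0.47 to 0.90). Trimmed-mean scaling moved the median of all genes by 0.197 for in vivo minus culture in stroma and its split from 3575 higher and 4681 lower to 4466 and 3419. Quantile normalization moved the split for HSPC in endothelium from 3962 and 2851 to 3121 and 3742. Replicate numbers were not shown to pair libraries (same-number correlations of -0.114 to 0.13). With the number as a block, 183 of 184 member calls were kept over the 10 comparisons, the calls for Itga6 with HSPC in endothelium (adjusted p = 0.042) and the difference for Itgb7 (0.033) were gained, and that for Itga4 in vivo minus culture (0.0748) was lost.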
